A study of Mus musculus with 9 samples.

Results

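The genes described are 10 markers of resting, homeostatic astrocytes: Aqp4, Slc1a2, Slc1a3, Gja1, Gjb6, S100b, Aldh1l1, Slc7a10, Plpp3 and Kcnj10. They were taken by gene symbol from a table of 53465 genes measured by bulk RNA-seq in mouse ventral hippocampus, and all 10 are in it. There were 9 libraries from freshly isolated tissue in 3 groups of 3. The first group, labelled CRS-NKAα1+/-, is named for a heterozygous genotype. In the second, labelled CRS-WT-DR5-12D, wild-type mice were combined with an agent named DR5-12D, and the third, labelled CRS-WT, holds wild-type mice without it. All 3 groups carry the prefix CRS, so none is free of that condition. What CRS and DR5-12D stand for is not spelled out by the labels. Dose, time, sex, age, the allele and the animal behind each library are likewise not stated in the sources at hand. The p-values therefore measure the spread between these libraries, which may in part be technical.

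Astrocytes clear glutamate and potassium from the space around synapses, pass metabolites and ions to each other through gap junctions, and cover blood vessels with endfeet rich in a water channel. Slc1a2 (GLT-1) and Slc1a3 (GLAST) are their glutamate transporters, Kcnj10 (Kir4.1) is their inward-rectifier potassium channel, and Aqp4 is the endfoot water channel. Gja1 (connexin 43) and Gjb6 (connexin 30) form their gap junctions. Slc7a10 (Asc-1) exchanges small neutral amino acids such as serine and glycine, Aldh1l1 is an enzyme of folate metabolism, S100b is a calcium-binding protein, and Plpp3 is a lipid phosphatase of the cell surface that dephosphorylates lysophosphatidic acid and related lipids.

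The deposited values are FPKM, fragments scaled to gene model length and library size, so levels can be compared between genes. Whole fragment numbers could be recovered from them, and the implied depth was 15117452 to 27323379 fragments per library. Of the members, Slc7a10 had the fewest fragments, from 486 to 1158 per library, and Slc1a2 the most, from 31571 to 62890, so counting error is larger, relative to the level, for Slc7a10 than for Slc1a2. Groups are called by their labels throughout. Of the 9 libraries, 3 stood apart from the other 6 in genes of dentate granule cells, the principal neurons of the dentate gyrus. The mean log2(FPKM + 1) of 16 such genes was 1.95 and 1.88 in CRS-NKAα1+/- libraries 1 and 2 and 1.95 in CRS-WT-DR5-12D library 1, and 2.83 to 3.16 in the others. Results for the members are therefore given with and without these 3. Without them the group labelled CRS-NKAα1+/- keeps only 1 library, so every such value against CRS-WT rests on that library. For Slc1a2, Slc1a3, Slc7a10 and Kcnj10 these values are given in the closing section on processing, where their direction against CRS-WT reverses. The gene Gm23935 held 28.7 to 37.9% of a library's summed FPKM in the libraries labelled CRS-NKAα1+/-, 26.5 to 33.5% in CRS-WT-DR5-12D and 4.67 to 19.3% in CRS-WT, which matters where values are rescaled to that sum.

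All 10 members were above 0 in every library, and their mean level exceeded that of 76.6% (Aldh1l1) to 98.7% (Slc1a2) of the 17753 genes tested, those with a mean of at least 0.5 FPKM. Slc1a2 was highest, with 139.9 to 188.5 FPKM over the 9 libraries, and overlapped no other member. Plpp3 (69.1 to 115.4 FPKM), S100b (63.6 to 83.9 FPKM) and Slc1a3 (59.4 to 75.6 FPKM) came next, and neighbours in that order overlapped. A gap separated Slc1a3 from Kcnj10, with 16.7 to 32.3 FPKM. The remaining levels, in falling order of their means, were 17.0 to 29.5 FPKM for Gjb6, 13.2 to 28.1 for Aqp4, 14.7 to 20.9 for Slc7a10, 12.5 to 20.0 for Gja1 and 9.21 to 17.2 for Aldh1l1, again with overlap between neighbours. Summed over the 10 genes, levels were 471 to 505 FPKM in the libraries labelled CRS-NKAα1+/-, 491 to 516 FPKM in CRS-WT-DR5-12D and 512 to 564 FPKM in CRS-WT. Plpp3 made up 14.0 to 16.3% of that sum in the libraries labelled CRS-NKAα1+/- and 20.3 to 21.1% in CRS-WT. The sums therefore depend in part on this gene and do not describe all members alike. In bulk tissue, the number of astrocytes and the RNA per astrocyte cannot be told apart.

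**Figure D1:**
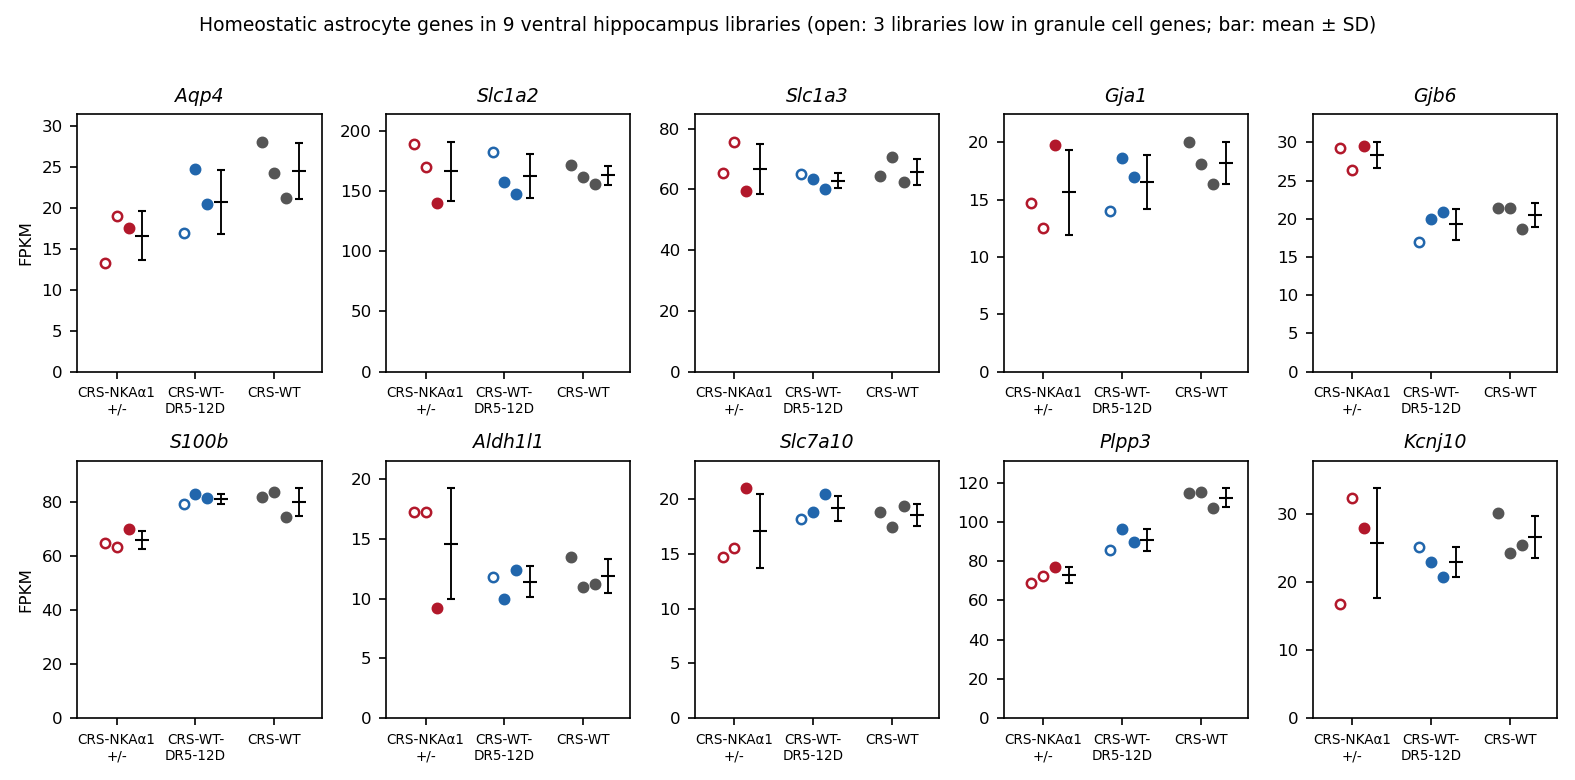
FPKM of the 10 members (vertical axes, from 0) in each of the 9 libraries, by group from left to right CRS-NKAα1+/-, CRS-WT-DR5-12D and CRS-WT; points are libraries, open points are the 3 libraries low in granule cell genes, and bars show mean ± SD of 3 libraries. Plpp3 forms 3 separate tiers, 69.1 to 77.0, 85.7 to 96.5 and 107.0 to 115.4 FPKM, Gjb6 is highest in the libraries labelled CRS-NKAα1+/-, and Slc1a2 and Slc1a3 overlap across all groups.

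The comparison of the libraries labelled CRS-NKAα1+/- with CRS-WT sets the heterozygous label against wild type under the shared condition. Libraries 1 and 2 of the first group are low in granule cell genes, and no CRS-WT library is. The share of Gm23935 was 28.7 to 37.9% in the first group and 4.67 to 19.3% in CRS-WT. An effect of the genotype cannot be told apart from these differences in library make-up. The members did not all lie on one side. Plpp3, Aqp4 and S100b lay below every CRS-WT library in all 3 libraries labelled CRS-NKAα1+/-, Gjb6 lay above every one, and the other 6 members overlapped. None of the 10 passed the limma test with Benjamini-Hochberg adjustment over all genes at an adjusted p under 0.05, where 0.0225% of all genes did, and 4 members had an unadjusted p under 0.05, where 14.1% of all genes did. Groups without overlap were 1 higher and 3 lower member, beside 10.9% and 10% of all genes in those directions. The median log2 difference was −0.11 over the members and 0.0091 over all genes tested. Rescaled to TPM, where the median of all genes moved to −0.42, the 10 members had a median of −0.58, and 7 of them were lower past the threshold beside 7451 of the 17753 genes tested, in either direction.

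The sequence before the transcription start is shown for the members without overlap between the libraries labelled CRS-NKAα1+/- and both other groups, Plpp3, S100b and Gjb6, so that the pair with lower values can be set beside the member with higher ones. Each is the 250 bases before the RefSeq start on GRCm38.p6, 5′ to 3′ on the gene's strand, in lower case with motif matches on either strand in capitals. The windows are chr4:105157097-105157346 (plus) for Plpp3, chr10:76253586-76253835 (plus) for S100b and chr14:57133612-57133861 (minus) for Gjb6.
Plpp3: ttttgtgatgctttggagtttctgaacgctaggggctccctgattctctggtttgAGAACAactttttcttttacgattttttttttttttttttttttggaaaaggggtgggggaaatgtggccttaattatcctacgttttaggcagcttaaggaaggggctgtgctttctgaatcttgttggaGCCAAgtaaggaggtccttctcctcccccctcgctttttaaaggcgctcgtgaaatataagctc
S100b: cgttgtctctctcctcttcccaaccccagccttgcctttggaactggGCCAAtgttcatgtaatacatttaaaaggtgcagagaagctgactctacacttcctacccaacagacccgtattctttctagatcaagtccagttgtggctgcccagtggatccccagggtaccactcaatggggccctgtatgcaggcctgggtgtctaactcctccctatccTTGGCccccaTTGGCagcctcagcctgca
Gjb6: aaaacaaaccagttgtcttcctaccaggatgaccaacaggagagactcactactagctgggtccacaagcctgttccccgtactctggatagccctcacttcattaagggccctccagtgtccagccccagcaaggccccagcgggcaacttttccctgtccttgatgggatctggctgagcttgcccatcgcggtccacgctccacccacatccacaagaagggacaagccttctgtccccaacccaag
The motifs searched were a nuclear factor I element (TTGGC), a STAT site (TTCNNNGAA), a glucocorticoid receptor element (TGTTCT), a SOX site (ACAAT) and the TATA box (TATAAA), held by 41.5%, 7.02%, 16.1%, 27.7% and 12.4% of all 32851 RefSeq promoter windows of that length. Counted from the start, with −1 the last base before it, Plpp3 had TTGGC at −64 and TGTTCT at −195, both on the opposite strand. S100b had TTGGC at −203 on the opposite strand and at −29 and −19 on its own, and Gjb6 had no match. No capital run overlaps another. RefSeq entries were matched for 9 of the 10 members. Of the others, Kcnj10 held the same pair of motifs as Plpp3, at −66 and −191. Slc1a2 had TTGGC at −114, and Slc1a3 had a STAT site, a glucocorticoid receptor element, a SOX site and a TATA box. Gja1, Aldh1l1 and Slc7a10 had no match in this window. A match is a run of letters and not evidence of a bound factor.

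Plpp3, on chromosome 4 (GRCm38, 105157347 to 105232764, plus strand), had 69.1, 72.5 and 77.0 FPKM in the libraries labelled CRS-NKAα1+/-, 85.7, 96.5 and 89.6 FPKM in CRS-WT-DR5-12D, and 114.7, 115.4 and 107.0 FPKM in CRS-WT. The 3 groups formed 3 tiers with no overlap between any pair of them. The mean was 72.9 ± 3.99 FPKM in the libraries labelled CRS-NKAα1+/- and 112.4 ± 4.63 FPKM in CRS-WT (SD, n = 3 each), a ratio of 0.648. On the log2(FPKM + 1) scale the difference was −0.62 (SE 0.073, 95% interval −0.79 to −0.45, limma adjusted p = 0.0525), the 7th smallest p of all genes tested, and it missed the threshold. Of the members, Plpp3 was the one that passed the limma F-test for any difference among the 3 groups (adjusted p = 0.0399), a test passed by 0.27% of all genes. Over all genes, this test called 48 genes with all 9 libraries, 151 without CRS-NKAα1+/- library 1, and 1 to 38 without each other library. The call of Plpp3 rests on the full set of libraries. It held without CRS-NKAα1+/- library 1 (F-test adjusted p = 0.0439) and was lost without each of the other 8 libraries. The adjusted p was 0.0782 and 0.054 without CRS-NKAα1+/- libraries 2 and 3, 0.0888, 0.147 and 0.109 without CRS-WT-DR5-12D libraries 1, 2 and 3, and 0.134, 0.14 and 0.0892 without CRS-WT libraries 1, 2 and 3. Without the 3 libraries low in granule cell genes it was 0.126, and the log2 difference between the libraries labelled CRS-NKAα1+/- and CRS-WT was −0.54.

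Among the genes of lysophosphatidic acid turnover and its receptors, Lpar1, a receptor for that lipid, averaged 2.31 ± 0.39 FPKM in the libraries labelled CRS-NKAα1+/- and 5.05 ± 0.93 FPKM in CRS-WT (SD, n = 3 each, log2 difference −0.87, limma adjusted p = 0.152). Its groups did not overlap, where 10% of all genes were lower without overlap, and Lpar1 is also expressed by oligodendrocytes and neural stem cells. Plpp2, another phosphatase of the family, averaged 1.24 ± 0.29 FPKM in the libraries labelled CRS-NKAα1+/- and 2.65 ± 0.85 FPKM in CRS-WT (log2 difference −0.69, limma adjusted p = 0.284), and Plpp1 averaged 13.5 ± 1.90 FPKM in the libraries labelled CRS-NKAα1+/- and 10.6 ± 0.03 FPKM in CRS-WT (log2 difference 0.32, limma adjusted p = 0.297, and 0.11 without the 3 libraries low in granule cell genes). Of the 13 listed genes tested, Plpp3 included, none passed in any of the 3 comparisons by limma, and 5, 1 and 2 had an unadjusted p under 0.05, beside 14.1%, 13% and 8.83% of all genes tested. Here and below, 3 such counts refer first to the libraries labelled CRS-NKAα1+/- set against CRS-WT, then to CRS-WT-DR5-12D set against CRS-WT, and last to CRS-WT-DR5-12D set against the libraries labelled CRS-NKAα1+/-.

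Gjb6, on chromosome 14 (GRCm38, 57123303 to 57133611, minus strand), had 29.2, 26.4 and 29.5 FPKM in the libraries labelled CRS-NKAα1+/-, 17.0, 20.0 and 20.9 FPKM in CRS-WT-DR5-12D, and 21.4, 21.4 and 18.6 FPKM in CRS-WT. The libraries labelled CRS-NKAα1+/- lay above all 6 others, and the other groups overlapped. Against CRS-WT the log2 difference was 0.45 (SE 0.095, 95% interval 0.24 to 0.67, limma adjusted p = 0.179). It was −0.0096 when values were rescaled to TPM, where the median of all genes moved to −0.42, so that Gjb6 stood 0.41 above the median gene. Without the 3 libraries low in granule cell genes it was 0.51.

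Gja1, the other main astrocyte connexin, on chromosome 10 (GRCm38, 56377330 to 56402513, plus strand), had 14.7, 12.5 and 19.7 FPKM in the libraries labelled CRS-NKAα1+/-, 14.0, 18.6 and 17.0 FPKM in CRS-WT-DR5-12D, and 20.0, 18.1 and 16.4 FPKM in CRS-WT. All groups overlapped, and the 3 lowest values were those of the 3 libraries low in granule cell genes. Against CRS-WT the log2 difference in the libraries labelled CRS-NKAα1+/- was −0.22 (95% interval −0.60 to 0.16, limma adjusted p = 0.511), and without those 3 libraries it was 0.12.

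The ratio of Gjb6 to Gja1 within a library does not depend on how libraries are scaled. It was 1.98, 2.11 and 1.49 in the libraries labelled CRS-NKAα1+/-, 1.22, 1.08 and 1.23 in CRS-WT-DR5-12D, and 1.07, 1.18 and 1.14 in CRS-WT. The libraries labelled CRS-NKAα1+/- lay above all 6 others. The two-sided exact permutation p of the mean log2 ratio was 0.1 against CRS-WT, the smallest that 3 against 3 libraries allow, and the ratio was chosen after the values were seen. The log2 difference was 0.71, between 0.61 and 0.86 when each library was left out in turn, and 0.41 without the 3 libraries low in granule cell genes.

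Among the 10 connexins listed, both members included, none passed the limma test in any comparison. In that order 3, 1 and 4 had an unadjusted p under 0.05, beside 14.1%, 13% and 8.83% of all genes. Connexins of oligodendrocytes had lower means in the libraries labelled CRS-NKAα1+/-. Gjb1 (connexin 32) averaged 1.98 ± 0.82 FPKM in the libraries labelled CRS-NKAα1+/- and 4.31 ± 1.24 FPKM in CRS-WT (SD, n = 3 each, log2 difference −0.85, limma adjusted p = 0.305). Gjc3, a connexin of oligodendrocytes, averaged 4.91 ± 1.02 FPKM in the libraries labelled CRS-NKAα1+/- and 6.68 ± 0.78 FPKM in CRS-WT (log2 difference −0.39, limma adjusted p = 0.350, and −0.25 without CRS-NKAα1+/- library 2). Neither gene overlapped between these groups, where 10% of all genes were lower without overlap.

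**Figure D2:**
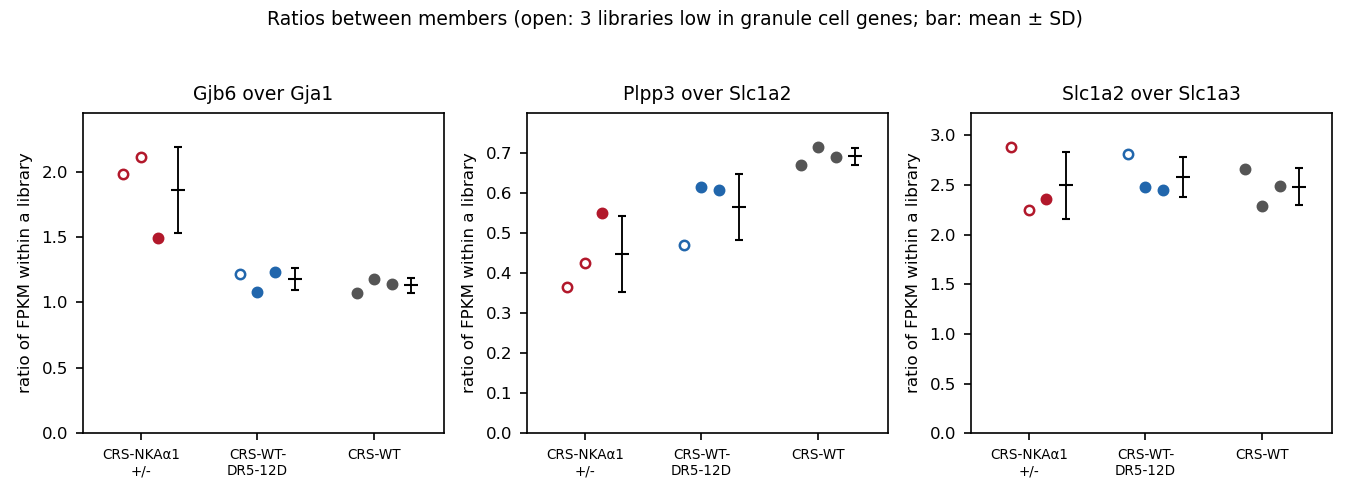
Ratios of FPKM within a library (vertical axes, from 0) for Gjb6 over Gja1, Plpp3 over Slc1a2 and Slc1a2 over Slc1a3, by group from left to right CRS-NKAα1+/-, CRS-WT-DR5-12D and CRS-WT; points are libraries, open points are the 3 libraries low in granule cell genes, and bars show mean ± SD of 3 libraries. Gjb6 over Gja1 is 1.49 to 2.11 in the libraries labelled CRS-NKAα1+/- and 1.07 to 1.23 elsewhere, Plpp3 over Slc1a2 is lower in both other groups than in CRS-WT, and Slc1a2 over Slc1a3 overlaps across groups.

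Aqp4, on chromosome 18, had 13.2, 19.0 and 17.6 FPKM in the libraries labelled CRS-NKAα1+/-, 16.9, 24.7 and 20.5 FPKM in CRS-WT-DR5-12D, and 28.1, 24.3 and 21.2 FPKM in CRS-WT. The libraries labelled CRS-NKAα1+/- lay below all CRS-WT libraries, and CRS-WT-DR5-12D overlapped both. The log2 difference against CRS-WT was −0.54 (SE 0.17, 95% interval −0.94 to −0.15, limma adjusted p = 0.294), and −0.45 without the 3 libraries low in granule cell genes. Of 12 tested genes listed for the endfoot dystroglycan complex and as other partners of Aqp4, none passed the limma test in any comparison. Of these, 1, 1 and 3 had an unadjusted p under 0.05, beside 14.1%, 13% and 8.83% of all genes. Mlc1, an endfoot membrane protein, averaged 51.4 ± 1.74 FPKM in the libraries labelled CRS-NKAα1+/- and 63.0 ± 3.07 FPKM in CRS-WT (SD, n = 3 each, log2 difference −0.29, limma adjusted p = 0.238). Hepacam, which binds Mlc1, averaged 24.5 ± 0.72 FPKM in the libraries labelled CRS-NKAα1+/- and 21.9 ± 0.31 FPKM in CRS-WT (log2 difference 0.15, limma adjusted p = 0.386). Neither pair of groups overlapped, where 10% of all genes were lower and 10.9% higher without overlap.

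S100b, on chromosome 10 (GRCm38, 76253853 to 76261159, plus strand), had 65.1, 63.6 and 70.0 FPKM in the libraries labelled CRS-NKAα1+/-, 79.5, 83.1 and 81.6 FPKM in CRS-WT-DR5-12D, and 82.1, 83.9 and 74.4 FPKM in CRS-WT. The libraries labelled CRS-NKAα1+/- lay below all 6 others. Against CRS-WT the log2 difference was −0.27 (SE 0.069, 95% interval −0.43 to −0.11, limma adjusted p = 0.230), and −0.19 without the 3 libraries low in granule cell genes. Oligodendrocytes also express S100b, and their marker genes also had lower means, as given below. Their part in the values of S100b was not tested.

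The glutamate transporters showed no separation. Slc1a2, on chromosome 2 (GRCm38, 102658659 to 102790784, plus strand), had 188.5, 170.2 and 139.9 FPKM in the libraries labelled CRS-NKAα1+/-, 182.7, 157.0 and 147.4 FPKM in CRS-WT-DR5-12D, and 171.2, 161.7 and 155.6 FPKM in CRS-WT. Slc1a3, on chromosome 15 (GRCm38, 8634124 to 8710764, minus strand), had 65.4, 75.6 and 59.4 FPKM in the libraries labelled CRS-NKAα1+/-, 65.1, 63.3 and 60.2 FPKM in CRS-WT-DR5-12D, and 64.3, 70.5 and 62.5 FPKM in CRS-WT. All groups overlapped for both genes. Against CRS-WT the log2 difference in the libraries labelled CRS-NKAα1+/- was 0.020 for Slc1a2 (95% interval −0.26 to 0.30) and 0.017 for Slc1a3 (95% interval −0.20 to 0.23). Differences of a size inside those intervals are not excluded by these data. Rescaled to TPM, the difference was −0.46 for each, beside −0.42 for the median gene on that scale. Of the 14 genes of glutamate uptake and the glutamine cycle, both included, none passed the limma test in any comparison. An unadjusted p under 0.05 was found for 3, 2 and 1, beside 14.1%, 13% and 8.83% of all genes.

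Plpp3 was also compared with Slc1a2 within each library. The ratio was 0.366, 0.426 and 0.550 in the libraries labelled CRS-NKAα1+/-, 0.469, 0.615 and 0.608 in CRS-WT-DR5-12D, and 0.670, 0.714 and 0.688 in CRS-WT. All 6 libraries of the first 2 groups lay below all CRS-WT libraries (two-sided exact permutation p = 0.1 for each against CRS-WT, the smallest possible, for a ratio chosen after the values were seen). The lowest ratios in each of those groups were those of the libraries low in granule cell genes. In the libraries labelled CRS-NKAα1+/- against CRS-WT the log2 difference of the ratio was −0.65, and −0.33 without those 3 libraries.

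Kcnj10, on chromosome 1 (GRCm38, 172341210 to 172374085, plus strand), had 16.7, 32.3 and 27.9 FPKM in the libraries labelled CRS-NKAα1+/-, 25.2, 22.9 and 20.7 FPKM in CRS-WT-DR5-12D, and 30.1, 24.2 and 25.5 FPKM in CRS-WT. The libraries labelled CRS-NKAα1+/- held both its lowest and its highest value, and the log2 difference against CRS-WT was −0.092 (95% interval −0.58 to 0.40, limma adjusted p = 0.848). Of the 8 genes of potassium buffering, Kcnj10 included, none passed the limma test in any comparison. In each, 1 had an unadjusted p under 0.05, beside 14.1%, 13% and 8.83% of all genes.

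Slc7a10, on chromosome 7 (GRCm38, 35186385 to 35201114, plus strand), had 14.7, 15.5 and 20.9 FPKM in the libraries labelled CRS-NKAα1+/-, 18.2, 18.8 and 20.4 FPKM in CRS-WT-DR5-12D, and 18.8, 17.4 and 19.3 FPKM in CRS-WT. Its log2 difference between the first and the last of these was −0.13 (95% interval −0.41 to 0.15, limma adjusted p = 0.617), and the groups overlapped. Lrp3 on the opposite strand shares 17.9% of its exon bases, and since strandedness is not given, some fragments may belong to either gene. Of the 14 genes of serine and glycine synthesis and transport, none passed the limma test in any comparison. An unadjusted p under 0.05 was found for 4, 3 and 3, beside 14.1%, 13% and 8.83% of all genes. Gldc, the glycine-decarboxylating enzyme of the glycine cleavage system, averaged 6.20 ± 1.61 FPKM in the libraries labelled CRS-NKAα1+/- and 12.5 ± 1.35 FPKM in CRS-WT (SD, n = 3 each, log2 difference −0.92, limma adjusted p = 0.172). Its groups did not overlap, where 10% of all genes were lower without overlap. The difference for Gldc was −0.58 without the 3 libraries low in granule cell genes. Phgdh, which starts serine synthesis, averaged 23.1 ± 6.38 FPKM in the libraries labelled CRS-NKAα1+/- and 32.4 ± 4.49 FPKM in CRS-WT (log2 difference −0.50, limma adjusted p = 0.344). These groups overlapped for Phgdh, whose 3 lowest values, 18.0 and 21.0 FPKM in CRS-NKAα1+/- libraries 1 and 2 and 21.5 FPKM in CRS-WT-DR5-12D library 1, were those of the 3 libraries low in granule cell genes, and without these the difference was −0.088.

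Aldh1l1, on chromosome 6 (GRCm38, 90486427 to 90600203, plus strand), had 17.2, 17.2 and 9.21 FPKM in the libraries labelled CRS-NKAα1+/-, 11.8, 9.94 and 12.4 FPKM in CRS-WT-DR5-12D, and 13.5, 10.9 and 11.2 FPKM in CRS-WT. The first of these groups held both the highest values and the lowest, with the 2 high values in its libraries low in granule cell genes. The log2 difference against CRS-WT was 0.23 (95% interval −0.27 to 0.73, limma adjusted p = 0.604), −0.23 when rescaled to TPM, −0.33 without the 3 libraries low in granule cell genes and 0.51 without CRS-NKAα1+/- library 3 (limma adjusted p = 0.0914). It was 0.091 and 0.090 without CRS-NKAα1+/- libraries 1 and 2. Gm15756 on the opposite strand shares 11% of its exon bases, and Gm45901 on the same strand also overlaps its exons. Of the 9 tested folate enzymes, Aldh1l1 included, none passed the limma test in any comparison. An unadjusted p under 0.05 was found for 2, 1 and 0, beside 14.1%, 13% and 8.83% of all genes.

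**Figure D3:**
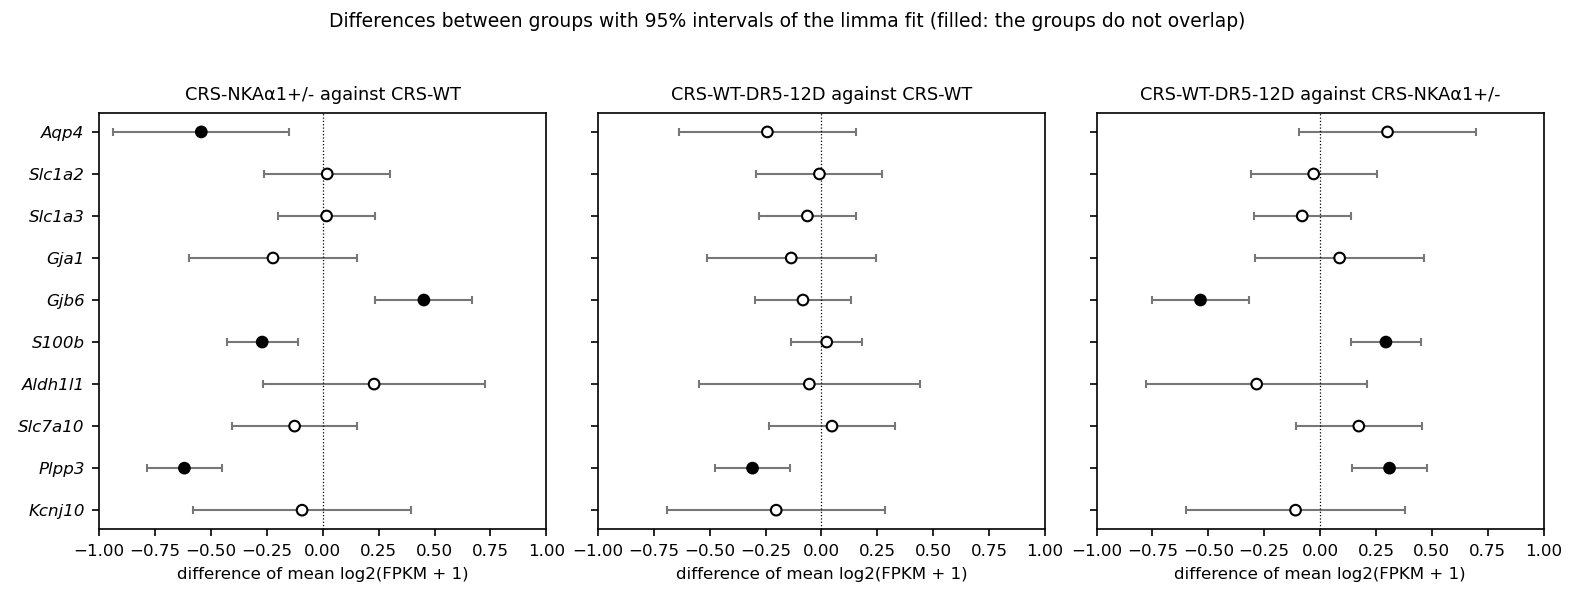
Difference of mean log2(FPKM + 1) between groups (horizontal axes) for each member in the 3 comparisons, with 95% intervals of the limma fit; the first-named group is the one on top, and filled points mark members whose groups did not overlap. In CRS-NKAα1+/- against CRS-WT, Plpp3 (−0.62), Aqp4 (−0.54) and S100b (−0.27) lie left of 0 and Gjb6 (0.45) right of it, and no member passed the adjusted threshold in any panel.

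CRS-WT-DR5-12D against CRS-WT sets the agent against its absence in wild-type mice. Library 1 of CRS-WT-DR5-12D is low in granule cell genes, and no CRS-WT library is. The share of Gm23935 was 26.5 to 33.5% in CRS-WT-DR5-12D and 4.67 to 19.3% in CRS-WT. An effect of the agent cannot be told apart from these differences in library make-up. Of the members, only Plpp3 separated these groups, at 90.6 ± 5.49 FPKM in CRS-WT-DR5-12D and 112.4 ± 4.63 FPKM in CRS-WT (SD, n = 3 each, log2 difference −0.31, SE 0.073, 95% interval −0.47 to −0.14, limma adjusted p = 0.171). None of the 10 passed the adjusted threshold, where 0.0282% of all genes did, and 1 had an unadjusted p under 0.05, where 13% did. Groups without overlap were found for 1 member, lower, beside 22.8% of all genes, 11.4% in each direction. The log2 differences of the other 9 ran from −0.24 (Aqp4, 95% interval −0.64 to 0.15) to 0.047 (Slc7a10, 95% interval −0.23 to 0.33). The median was −0.073 over the members and 0.0071 over all genes.

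CRS-WT-DR5-12D against CRS-NKAα1+/- shares its libraries with the other 2 comparisons, so its values are given side by side and not as further evidence. Gjb6 averaged 19.3 ± 2.03 FPKM in CRS-WT-DR5-12D and 28.4 ± 1.72 FPKM in the libraries labelled CRS-NKAα1+/- (SD, n = 3 each, log2 difference −0.53, SE 0.095, 95% interval −0.75 to −0.32, limma adjusted p = 0.066). S100b averaged 81.4 ± 1.82 FPKM in CRS-WT-DR5-12D and 66.2 ± 3.33 FPKM in the libraries labelled CRS-NKAα1+/- (log2 difference 0.29, SE 0.069, limma adjusted p = 0.147), and Plpp3 averaged 90.6 ± 5.49 FPKM in CRS-WT-DR5-12D and 72.9 ± 3.99 FPKM in the libraries labelled CRS-NKAα1+/- (log2 difference 0.31, SE 0.073, limma adjusted p = 0.146). These were the 3 members without overlap, 2 higher and 1 lower, beside 5.35% and 7.15% of all genes. By limma none of the 10 passed the adjusted threshold, where 0.513% of all genes did (0.0113% higher, 0.501% lower), and the same 3 had an unadjusted p under 0.05, where 8.83% did. The median was 0.029 over the members and 0.0065 over all genes.

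The profiles of the members over the libraries were mixed. Over the 9 libraries, Pearson r of log2(FPKM + 1) between pairs ran from −0.816 (Aldh1l1 with Slc7a10) to 0.859 (Aqp4 with Plpp3), and r with the members' own mean profile ran from −0.288 (Gjb6) to 0.897 (Aqp4). These r describe 9 libraries that share group, tissue make-up and scaling, and the mean profile includes the member it is set against. S100b with Plpp3 reached 0.814 and Gjb6 with S100b −0.740. Library CRS-NKAα1+/- 1 held the lowest value of 4 members, Aqp4, Slc7a10, Plpp3 and Kcnj10, and also the highest value of Slc1a2. The 10 genes whose profile over the 9 libraries was most like the members' mean were Sp1, Eef1a1, Eif3d, Rpl7, Natd1, Frmd8os, Eef1b2, Topbp1, Lgals1 and Itpripl2, with Pearson r from 0.925 to 0.959. These genes were picked for the highest r among many over only 9 libraries, so high r follows from the choice. None of them is in an astrocyte list used here.

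Genes of other cell types also differed in level between these groups. The mean log2(FPKM + 1) of 12 oligodendrocyte genes was 4.65, 4.05 and 4.57 in the libraries labelled CRS-NKAα1+/-, 4.70, 5.51 and 4.91 in CRS-WT-DR5-12D, and 5.33, 4.96 and 5.14 in CRS-WT, and their summed level was 330 to 572 FPKM in the libraries labelled CRS-NKAα1+/-, 544 to 1026 FPKM in CRS-WT-DR5-12D and 729 to 976 FPKM in CRS-WT. All 12 had lower means in the libraries labelled CRS-NKAα1+/- than in CRS-WT (median log2 difference −0.70), none past the threshold by limma and 9 at an unadjusted p under 0.05, beside 14.1% of all genes. No defining oligodendrocyte marker was at 0 in any library. Summed levels of 12 microglia genes were 689 to 942 FPKM in the libraries labelled CRS-NKAα1+/-, 277 to 357 FPKM in CRS-WT-DR5-12D and 493 to 626 FPKM in CRS-WT. Against CRS-WT, none of the 12 passed in either other group by limma, with 6 and 10 at an unadjusted p under 0.05, beside 14.1% and 13% of all genes. The list was mixed: P2ry12, a receptor of resting microglia, averaged 6.02 ± 0.24 FPKM in the libraries labelled CRS-NKAα1+/- and 10.51 ± 1.79 FPKM in CRS-WT (SD, n = 3 each, log2 difference −0.70, limma adjusted p = 0.238, no overlap), and had 13.8, 12.1 and 7.95 FPKM in CRS-WT-DR5-12D. Summed levels of 12 endothelial genes were 95.5 to 125 FPKM in the libraries labelled CRS-NKAα1+/-, 77.6 to 96.9 FPKM in CRS-WT-DR5-12D and 118 to 127 FPKM in CRS-WT. Those of 12 pan-neuronal genes were 1147 to 1382 FPKM in the libraries labelled CRS-NKAα1+/-, 1192 to 1470 FPKM in CRS-WT-DR5-12D and 1097 to 1193 FPKM in CRS-WT, with the 3 highest sums in the 3 libraries low in granule cell genes. In CRS-WT-DR5-12D against the libraries labelled CRS-NKAα1+/-, 6 microglia genes and the endothelial gene Ly6c1 (log2 difference −1.08, limma adjusted p = 0.0416) were lower past the threshold, as were 0.501% of all genes, and the oligodendrocyte gene Opalin (1.54, limma adjusted p = 0.0287) was higher, as were 0.0113%. Other endothelial genes differed in direction from Ly6c1, with 6 of 12 higher on average. Among them were Itm2a (0.97, limma adjusted p = 0.255) and Flt1 (0.31, limma adjusted p = 0.314), both higher without overlap, as were 5.35% of all genes. Over the 9 fits that left out a library, 1 to 194 of all genes were called in this comparison, against 91 with all 9 libraries. The Ly6c1 and Opalin calls held in 1 and 2 of 9 fits that left out a library. Of the microglia genes, C1qa, C1qb and Ctss held in 7 of 9, Olfml3 in 6, C1qc in 5 and Tmem119 in 1, and all 6 were lost without CRS-WT-DR5-12D library 2 and without library 3 of that group. The part of these cell types in the members' values was not tested.

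The remaining marker lists were short or low. Neural stem and radial glia-like genes, several of which astrocytes share, summed to 84.8 to 139 FPKM in the libraries labelled CRS-NKAα1+/-, 113 to 147 FPKM in CRS-WT-DR5-12D and 131 to 140 FPKM in CRS-WT, with the 3 lowest sums in the 3 libraries low in granule cell genes. Oligodendrocyte precursor genes summed to 80.7 to 88.7 FPKM in the libraries labelled CRS-NKAα1+/-, 81.7 to 93.5 FPKM in CRS-WT-DR5-12D and 102 to 112 FPKM in CRS-WT. Mural genes summed to 41.5 to 56.6 FPKM in the libraries labelled CRS-NKAα1+/-, 42.8 to 67.1 FPKM in CRS-WT-DR5-12D and 69.1 to 79.5 FPKM in CRS-WT, and their 3 lowest sums were again in the 3 libraries low in granule cell genes. Ependymal genes summed to at most 32.5 FPKM, choroid plexus genes to at most 11.6 FPKM and meningeal fibroblast genes to at most 41.6 FPKM in any library. The 3 lowest sums of the ependymal, choroid plexus and meningeal lists were also those of these 3 libraries. No gene of these 6 lists passed the limma test in any comparison.

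Of 56 further astrocyte-enriched genes, none passed by limma in either comparison with CRS-WT, with 16 and 9 at an unadjusted p under 0.05, beside 14.1% and 13% of all genes, and their median log2 difference was −0.067 and −0.060. Itih3, a secreted protein of the inter-alpha-trypsin inhibitor family, averaged 18.0 ± 4.22 FPKM in the libraries labelled CRS-NKAα1+/- and 7.90 ± 0.44 FPKM in CRS-WT (SD, n = 3 each, log2 difference 1.07, limma adjusted p = 0.0694), and without the 3 libraries low in granule cell genes it passed (1.35, limma adjusted p = 0.0266) with 1 library left in the first group. Apoe, the main lipid carrier of the brain, averaged 785 ± 113 FPKM in the libraries labelled CRS-NKAα1+/- and 1272 ± 61.2 FPKM in CRS-WT (log2 difference −0.70, limma adjusted p = 0.142). Its groups did not overlap, where 10% of all genes were lower without overlap. Microglia and vessel-associated cells also express Apoe.

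Of these 56, Itih3, Lfng and Etnppl were lower past the threshold in CRS-WT-DR5-12D than in the libraries labelled CRS-NKAα1+/-, where 0.501% of all genes were. Itih3 averaged 7.53 ± 0.73 FPKM in CRS-WT-DR5-12D and 18.0 ± 4.22 FPKM in the libraries labelled CRS-NKAα1+/- (log2 difference −1.13, limma adjusted p = 0.0275). Lfng, which modifies Notch receptors, gave −0.99 (limma adjusted p = 0.0314) and Etnppl, a phospholyase of phosphoethanolamine, −1.57 (limma adjusted p = 0.0423). When each library was left out in turn, the call held in 2 of 9 fits for Itih3, 1 of 9 for Lfng and none of 9 for Etnppl, with adjusted p up to 0.145, 0.137 and 0.201.

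**Figure D4:**
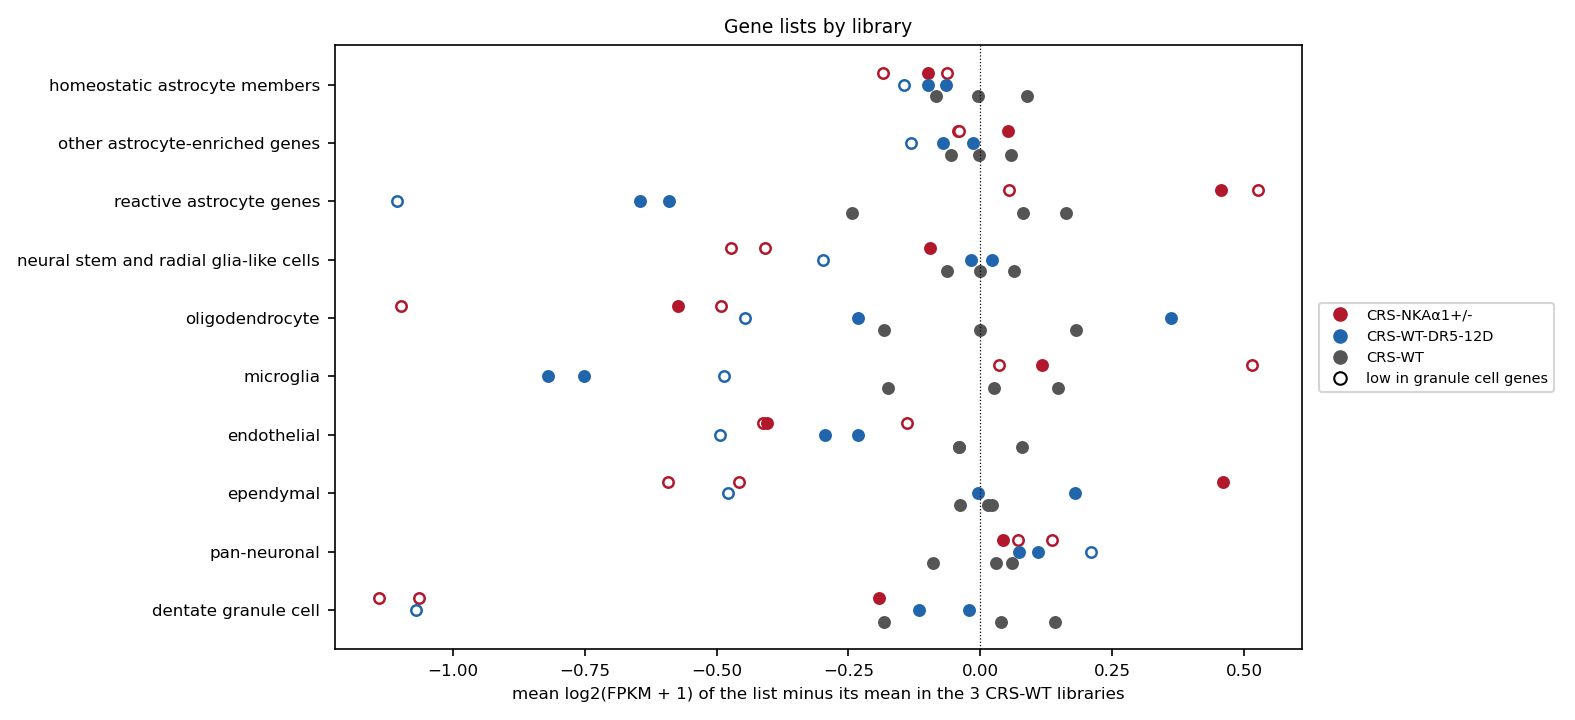
Mean log2(FPKM + 1) of each gene list in a library minus the mean of the 3 CRS-WT libraries (horizontal axis); points are libraries, colours are the groups CRS-NKAα1+/-, CRS-WT-DR5-12D and CRS-WT, and open points are the 3 libraries low in granule cell genes. The mean of the members spans a narrow range, 5.08 to 5.36 before subtraction, and averages members that differ in direction. Other astrocyte-enriched genes (4.53 to 4.72) and pan-neuronal genes (6.10 to 6.40) also span narrow ranges. Reactive astrocyte, microglia, oligodendrocyte and dentate granule cell genes spread more widely.

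Reactive astrocyte genes are those that injury or inflammation raises in astrocytes. The summed level of 19 such genes was 238, 442 and 310 FPKM in the libraries labelled CRS-NKAα1+/-, 39.5, 128 and 121 FPKM in CRS-WT-DR5-12D, and 272, 317 and 205 FPKM in CRS-WT. All 3 CRS-WT-DR5-12D libraries lay below all others. Of 15 tested, all 15 had means in CRS-WT-DR5-12D below those of CRS-WT (median log2 difference −0.78), none past the threshold by limma and 10 at an unadjusted p under 0.05, beside 13% of all genes. Gfap, the intermediate filament of reactive astrocytes, averaged 52.8 ± 32.5 FPKM in CRS-WT-DR5-12D and 160 ± 30.3 FPKM in CRS-WT (SD, n = 3 each, log2 difference −1.85, limma adjusted p = 0.221). Its values in CRS-WT-DR5-12D were 15.3, 71.7 and 71.5 FPKM, and without library 1, the one low in granule cell genes, the difference was −1.13 (limma adjusted p = 0.232). Between the libraries labelled CRS-NKAα1+/- and CRS-WT the median was 0.24, with none past the threshold by limma and 8 at an unadjusted p under 0.05, beside 14.1% of all genes. The list was split, with 8 genes higher and 7 lower. Groups without overlap were 6 higher and 3 lower, beside 10.9% and 10% of all genes. Gfap had 87.9, 145.4 and 117.3 FPKM in the libraries labelled CRS-NKAα1+/- and 167.8, 185.6 and 126.5 FPKM in CRS-WT. In CRS-WT-DR5-12D against the libraries labelled CRS-NKAα1+/-, Socs3 (−2.21), Hspb1 (−1.83) and Lcn2 (−4.14) were lower past the threshold (limma adjusted p = 0.0375, 0.0442 and 0.0457), as were 0.501% of all genes. Their means in CRS-WT-DR5-12D were low, at 0.98, 2.63 and 1.31 FPKM. These calls held in 1, 0 and 1 of 9 fits that left out a library.

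In the S100 family, S100a8 and S100a9, which neutrophils carry, were lower past the threshold in CRS-WT-DR5-12D than in the libraries labelled CRS-NKAα1+/- (log2 differences −4.11 and −4.57, limma adjusted p = 0.0352 and 0.0275), as were 0.501% of all genes. Their means in CRS-WT-DR5-12D were low, at 0.50 and 0.88 FPKM. S100b was higher in CRS-WT-DR5-12D without passing. The S100a8 and S100a9 calls held in 1 and 2 of 9 fits that left out a library. Against CRS-WT none of the 9 tested family members passed by limma, with 3 at an unadjusted p under 0.05 in each comparison, beside 14.1% and 13% of all genes.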

How the data were processed

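Bulk RNA-seq of mouse ventral hippocampus was deposited by the authors as 1 table of FPKM for 53465 genes and 9 libraries, grouped by their titles. Per the submitters' processing notes, cutadapt, HISAT2 and RSEM 1.2.30 were used with GRCm38; which annotation release was used, whether counting used strand and what was filtered is not stated in the sources at hand. Multiplying FPKM by the merged exon length in GENCODE vM21 gave whole fragments, within 0.02, for 95.2 to 95.9% of values in a library, which yields the depths stated; Aqp4 was not whole at its vM21 length. Genes with a mean of at least 0.5 FPKM (17753) were fitted as log2(FPKM + 1) with limma 3.58.1 in R 4.3.3, with all 9 libraries, group means and a mean-variance trend, two-sided tests of 3 pairs of groups and an F-test, with Benjamini-Hochberg adjustment over all genes tested. The added 1 understates fold changes of low genes. The fit was tested on simulated data. Of other lists, up to 4 genes with the smallest p per comparison and every gene past the threshold could be named. A check of the heterozygous label against the RNA of a single gene is not reported here. The members and lists were chosen with earlier results of these data known. Promoter windows are RefSeq's on GRCm38.p6. Python 3.11.15 with pandas 2.3.3 and scipy 1.17.1 made the tables. Alternatives were other pseudocounts, filters and scalings, 2-group fits, a replicate block and left-out libraries.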

Additional observations from a re-analysis of the deposited data

How the results depend on the processing

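Over the alternatives, 563 of 614 log2 differences or ratios of members kept their direction and their side of the threshold or stayed within the replicate SD. That count is not a measure of robustness. The filters, the 2-group fits, the replicate block and leaving out a library of the group not compared cannot change a log2 difference. No member passed in the main fits of pairs of groups, so keeping the side of the threshold mostly meant staying short of it. Rescaling to TPM moved the median of all genes to −0.42 between the libraries labelled CRS-NKAα1+/- and CRS-WT, −0.33 with CRS-WT-DR5-12D set against CRS-WT and 0.10 with CRS-WT-DR5-12D set against the libraries labelled CRS-NKAα1+/-, and called 7451, 975 and 68 of 17753 genes. By construction that scaling follows the share of Gm23935; with this gene left out of the total, an alternative chosen after seeing the data, the medians were −0.0019, 0.011 and 0.023. Under TPM 7 members passed in CRS-NKAα1+/- against CRS-WT, all lower (Aqp4, Slc1a2, Slc1a3, Gja1, S100b, Slc7a10 and Plpp3), 1 in CRS-WT-DR5-12D against CRS-WT (Plpp3, lower), and 2 by the F-test. The members' medians became −0.58, −0.44 and 0.14 in the 3 comparisons. Reversed under TPM in CRS-NKAα1+/- against CRS-WT were Slc1a2 (−0.46), Slc1a3 (−0.46), Gjb6 (−0.0096) and Aldh1l1 (−0.23), in CRS-WT-DR5-12D against CRS-WT S100b (−0.35) and Slc7a10 (−0.32), and in CRS-WT-DR5-12D against CRS-NKAα1+/- Slc1a2 (0.079) and Slc1a3 (0.027). Quantile normalization reversed Slc1a2 (−0.051) and Slc1a3 (−0.0064) in CRS-NKAα1+/- against CRS-WT, S100b (−0.0017) in CRS-WT-DR5-12D against CRS-WT, as well as Slc1a2 (0.0023) in CRS-WT-DR5-12D against CRS-NKAα1+/-.

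The F-test count of 1 member (Plpp3) became 0 with pseudocount 5, without a filter, with the replicate block, without the 3 libraries low in granule cell genes and under TPM without Gm23935, and was 0 to 1 when each library was left out. The cause was not tested. The members past the threshold in CRS-NKAα1+/- against CRS-WT were 0 to 1 in those leave-outs, with Plpp3 passing without CRS-NKAα1+/- library 3 (adjusted p = 0.0383), and the median over members ran from −0.23 to −0.054; in CRS-WT-DR5-12D against CRS-NKAα1+/- it ran from −0.0028 to 0.12, and was 0.088 without the 3 libraries low in granule cell genes. Without those 3, CRS-NKAα1+/- against CRS-WT rests on 1 library assumed to vary like the others, and reversed were Slc1a2 (−0.22), Slc1a3 (−0.14), Gja1 (0.12), Aldh1l1 (−0.33), Slc7a10 (0.17) and Kcnj10 (0.076), in CRS-WT-DR5-12D against CRS-WT Gjb6 (0.0015), and in CRS-WT-DR5-12D against CRS-NKAα1+/- Slc1a2 (0.12), Slc1a3 (0.056), Gja1 (−0.14), Aldh1l1 (0.25) and Slc7a10 (−0.090). Leaving out each library in turn reversed at least 1 value of these log2 differences, which then ran as follows: in CRS-NKAα1+/- against CRS-WT Slc1a2 from −0.076 to 0.14, Slc1a3 from −0.075 to 0.10, Kcnj10 from −0.28 to 0.18. In CRS-WT-DR5-12D against CRS-WT Slc1a2 from −0.10 to 0.058, Gjb6 from −0.15 to 0.0015, S100b from −0.028 to 0.058, Aldh1l1 from −0.11 to 0.034. In CRS-WT-DR5-12D against CRS-NKAα1+/- Slc1a2 from −0.15 to 0.067, Slc1a3 from −0.16 to 0.012, Gja1 from −0.053 to 0.26, Kcnj10 from −0.38 to 0.076.

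No pairing of the libraries by replicate number was visible. Between same-numbered libraries, r of the deviations from the group means ran from −0.35 to 0.497, and between differently numbered ones from −0.716 to 0.505. With 3 libraries behind each mean, this check cannot show that there is no pairing. With the number as a block, 0, 0 and 40 of all genes were called in the 3 comparisons, against 4, 5 and 91 without it, and no member passed.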
